A study of Mus musculus with 10 samples.

Results

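The 9 genes described here mark the red pulp macrophages of the spleen or encode C1q, which these macrophages make: Spic, Vcam1, Adgre1, Cd5l, C1qa, C1qb, C1qc, Itgad and Mrc1. They were taken by gene symbol from a table of 54532 genes, and all 9 symbols were found once. The table holds FPKM, fragment counts scaled to gene length in kilobases and to library size, for 1 RNA library from each of 10 mouse spleens. Of these, 5 came from DUSP6 KO mice (Dusp6tm1Jmol, a germline deletion carried by every cell, which the sample labels call a knockdown) and 5 from WT mice (C57BL/6J). All mice were 8 to 12 weeks old and went through KSIA (KRN serum-induced arthritis), a joint disease passed on by injected serum from arthritic donors. They received 100 µL of serum on days 0 and 2, and the spleens were taken on day 9. No spleen without arthritis was compared. Both strains were bought, and the sources used here do not say that the DUSP6 KO and WT mice were littermates. Below, the 5 values of a gene are given in the order of replicates 26, 21, 73, 01 and 03 for DUSP6 KO and 65, 67, 73, 77 and 83 for WT, the numbers being those of the animals. Errors after ± are SDs over the 5 mice of a group.

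Red pulp macrophages line the cords of the splenic red pulp, where they engulf aged red blood cells and return the iron of their haem to the plasma. Their development requires the ETS factor SPI-C, whose gene is induced by haem. They carry F4/80 (the product of Adgre1), VCAM1 and the integrin alpha D on their surface, and they secrete CD5L. C1q starts the classical complement pathway on immune complexes and tags dying cells for uptake, and it is assembled from A, B and C chains in equal number.

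The deleted gene, Dusp6, was at 0.308 to 0.624 FPKM in the DUSP6 KO libraries and 16.6 to 24.0 FPKM in the WT libraries, so the labels held in all 10. Xist was at most 0.0206 FPKM and Ddx3y at least 14.4 FPKM, so all mice were male. Libraries held 14990474 to 19822673 reads. WT replicate 67 stood apart by exocrine pancreas RNA, with a sum of 16070 FPKM over 9 pancreas genes. DUSP6 KO replicate 73 had the highest sum of 10 erythroid genes, 106014 FPKM against 20391 FPKM in DUSP6 KO replicate 21, the lowest.

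Spic, C1qb and Cd5l have their promoters shown here because Spic and the C1q genes varied together between mice and Cd5l varied most. The RefSeq promoter table on GRCm38.p6 holds 5 of the 9 members (Spic, Cd5l, C1qb, C1qc and Mrc1). The sequences are the 250 bases before the RefSeq start of each gene, 5′ to 3′ on the strand of the gene. For Spic this start, at 88683023, is that of 3 of its 4 GENCODE transcripts, and the other transcript starts 1992 bases further upstream, so the Spic window lies inside the gene span given below. Capitals mark 2 motifs on either strand, GAGGAA (reverse TTCCTC), a core of the sites that PU.1 and SPI-C bind, and TGCTGA (reverse TCAGCA), the core of the sites of the MAF factors. The matches do not overlap each other.
Spic (chr10:88683024-88683273, minus strand): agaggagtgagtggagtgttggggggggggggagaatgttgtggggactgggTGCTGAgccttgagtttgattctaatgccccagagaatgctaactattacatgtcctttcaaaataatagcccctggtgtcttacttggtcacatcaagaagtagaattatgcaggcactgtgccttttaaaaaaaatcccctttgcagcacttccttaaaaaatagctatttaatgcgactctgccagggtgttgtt
C1qb (chr4:136886201-136886450, minus strand): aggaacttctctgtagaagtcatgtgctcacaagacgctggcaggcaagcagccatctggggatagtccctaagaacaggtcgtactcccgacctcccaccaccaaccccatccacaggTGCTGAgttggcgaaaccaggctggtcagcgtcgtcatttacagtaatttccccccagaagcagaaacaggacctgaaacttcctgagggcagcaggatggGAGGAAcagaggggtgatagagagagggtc
Cd5l (chr3:87357631-87357880, plus strand): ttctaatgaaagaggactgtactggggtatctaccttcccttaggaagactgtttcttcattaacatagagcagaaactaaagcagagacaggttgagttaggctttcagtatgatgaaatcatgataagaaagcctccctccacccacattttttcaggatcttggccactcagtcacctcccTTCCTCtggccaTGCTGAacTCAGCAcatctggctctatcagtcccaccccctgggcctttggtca

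Over the 5 windows, GAGGAA occurred once each in Cd5l, C1qb and C1qc and 3 times in Mrc1, and it was not found in Spic. The windows of C1qc and Mrc1, not printed, have 151 and 22 of their bases in annotated exons, since other transcripts start further upstream. Of 27025 promoters of the same length, 23.1% hold it. TGCTGA occurred once in Spic, once in C1qb and 2 times in Cd5l, and 15.8% of the promoters hold it. In C1qb, GAGGAA lies 30 to 25 bases before the start and TGCTGA 131 to 126 bases before it. In Cd5l, the GAGGAA match lies 66 to 61 bases before the start and the TGCTGA matches 54 to 49 and 46 to 41 bases before it. These matches are descriptions of the letters in these windows.

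All 9 genes were well expressed, with at least 1339 reads for each gene in each library. The C1q chains were the most abundant per length. In WT, the mean level was 297 FPKM for C1qb, 282 for C1qa, 145 for C1qc, 84.8 for Cd5l, 80.5 for Vcam1, 35.6 for Adgre1, 29.0 for Spic, 22.9 for Mrc1 and 20.5 for Itgad. Among neighbours in this order, the 5 WT values of C1qb and C1qa overlapped, as did those of Cd5l and Vcam1, of Adgre1 and Spic, and of Mrc1 and Itgad. The order of the means in DUSP6 KO was the same, with the exception that Vcam1 (75.6 FPKM) stood above Cd5l (65.7 FPKM). In whole spleen, fewer cells of a type and less RNA per cell cannot be told apart.

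**Figure D1:**
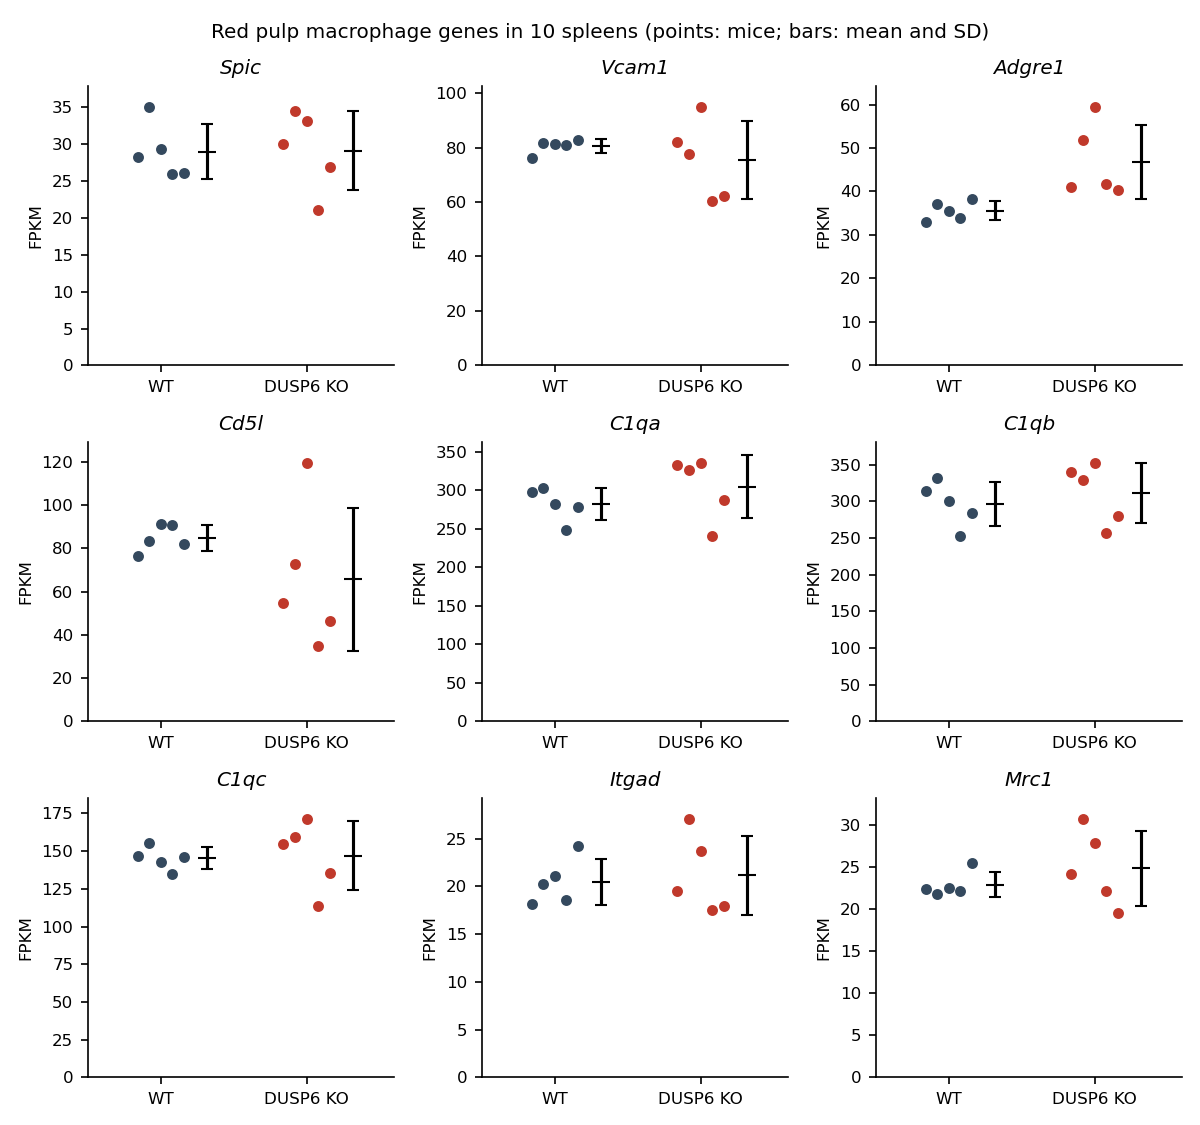
FPKM of the 9 red pulp macrophage genes, 1 panel per gene, with 1 point per mouse, the mean and the SD (n = 5 mice per group). The DUSP6 KO points lie above all WT points for Adgre1, overlap them for the other 8 genes, and are the more widely spread of the 2 groups in every panel.

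For 7 of the 9 genes the log2 fold change between DUSP6 KO and WT spleens was between -0.11 and 0.10. Adgre1 was higher in each DUSP6 KO spleen than in any WT spleen (log2 fold change 0.38). Cd5l had the fold change farthest from 0 (log2 fold change -0.50), with 4 of 5 DUSP6 KO values below every WT value and the other above them all. The values were compared with limma on log2(FPKM + 0.1) over 21296 genes, those whose mean reached 0.1 FPKM, and p-values were adjusted over all of them (Benjamini-Hochberg). None of the 9 passed an adjusted p of 0.05, 0 higher and 0 lower, where 0.0704% of all genes tested did (0.0376% higher and 0.0329% lower), and limma voom on read counts recovered from the FPKM also called 0. The study, which used DESeq2 on counts, reported far more genes as higher or lower in DUSP6 KO than were called here. At an unadjusted p under 0.05, 1 of the 9 was higher and 0 were lower, while 5.66% of all genes tested passed in either direction (2.62% higher and 3.03% lower). The 5 and 5 values did not overlap for 1 of the 9 genes, against 1.11% of all genes tested (0.549% with DUSP6 KO higher and 0.563% with DUSP6 KO lower). The median log2 fold change of the 9 was 0.035, and that of all genes tested was -0.0046.

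SPI-C, encoded by Spic (ENSMUSG00000004359, chromosome 10, 88674772 to 88685015), is the factor that the development of red pulp macrophages depends on. In the DUSP6 KO spleens Spic measured 30.0, 34.5, 33.2, 21.1 and 26.9 FPKM, and in the WT spleens 28.3, 35.1, 29.4, 25.9 and 26.1 FPKM. The groups overlapped almost fully, and DUSP6 KO replicate 01 alone was below every WT spleen. The mean was 29.1 ± 5.4 FPKM against 29.0 ± 3.7 FPKM in WT. The log2 fold change, a difference of mean log2 values that here has the opposite sign to the difference of the FPKM means, was -0.0035 with a 95% interval of -0.31 to 0.30 (limma adjusted p = 0.999). This interval allows a fold of 0.807 to 1.23. The gene lies on the chromosome of Dusp6, 10.6 Mb from it.

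Of the surface proteins, F4/80 is the adhesion G protein-coupled receptor by which mouse macrophages are recognised, and its gene is Adgre1 (ENSMUSG00000004730, chromosome 17, 57358691 to 57483527). In the DUSP6 KO spleens Adgre1 measured 40.9, 51.8, 59.5, 41.7 and 40.2 FPKM, and in the WT spleens 33.1, 37.2, 35.5, 34.0 and 38.3 FPKM. The lowest DUSP6 KO value was thus just above the highest WT value, and replicates 21 and 73 stood well above the other 3 DUSP6 KO spleens. The mean was 46.8 ± 8.5 FPKM against 35.6 ± 2.2 FPKM in WT. The log2 fold change of Adgre1, from the mean log2 values, was 0.38 with a standard error of 0.11. This is a 1.30-fold difference with a 95% interval of 1.09 to 1.55. By itself this difference passed the unadjusted threshold (unadjusted limma p = 0.0074, two-sided exact permutation p = 0.0079, the smallest possible with these group sizes). It did not pass after adjustment over all genes tested (limma adjusted p = 0.59, and 0.47 to 0.88 over the alternatives).

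The Adgre1 values above were then set against the other 8 genes of the same libraries. This restates the same difference and is not a separate result. The mean log2 value of those 8 differed by only -0.037, DUSP6 KO minus WT. Relative to the mean log2 value of the other 8, a measure chosen after the values were seen, log2 Adgre1 was at -0.89 to -0.47 in DUSP6 KO and at -1.17 to -1.01 in WT, without a test. The other 8 had a mean log2 value of 6.21 ± 0.28 in DUSP6 KO and 6.25 ± 0.06 in WT. DUSP6 KO replicate 01, the lowest library for most members, had the highest Adgre1 relative to them. That mean includes Cd5l, whose log2 deviation from its 10-library mean was -1.03 in DUSP6 KO replicate 01 and 0.75 in DUSP6 KO replicate 73. The first place of replicate 01 therefore depends on Cd5l being among the 8.

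VCAM1 binds the integrin alpha 4 beta 1 on leukocytes and is also made by endothelium and stroma. Vcam1 (ENSMUSG00000027962, chromosome 3, 116109949 to 116129688) measured 82.2, 77.7, 95.001, 60.6 and 62.4 FPKM in the DUSP6 KO spleens. In WT it lay in a narrow band, at 76.1, 81.6, 81.2, 81.0 and 82.8 FPKM. The DUSP6 KO values thus reached on both sides of the WT band, with 2 below it and 1 above it. The log2 fold change was -0.11 (95% interval -0.38 to 0.15, limma adjusted p = 0.99).

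Itgad encodes integrin alpha D, which pairs with the beta 2 chain, and Mrc1 encodes the mannose receptor CD206, which takes up glycoproteins. Itgad (ENSMUSG00000070369, chromosome 7, 128154376 to 128223816) ranged from 17.5 to 27.1 FPKM in DUSP6 KO and from 18.2 to 24.2 FPKM in WT, with a log2 fold change of 0.035 (95% interval -0.26 to 0.33, limma adjusted p = 0.99). Its gene span is overlapped on the other strand by Cox6a2, at a mean of 8.40 FPKM, and by 3 further genes. Strand use in the counting is not given in the sources used here. Whether these genes add to the reads of Itgad is therefore not known. Mrc1 (ENSMUSG00000026712, chromosome 2, 14229392 to 14332057) ranged from 19.5 to 30.7 FPKM in DUSP6 KO and from 21.8 to 25.5 FPKM in WT, with a log2 fold change of 0.10 (95% interval -0.16 to 0.36, limma adjusted p = 0.99). For both genes the groups overlapped, and DUSP6 KO replicate 21 held the highest value.

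CD5L is a secreted scavenger protein of tissue macrophages that keeps them alive and binds IgM. Cd5l (ENSMUSG00000015854, chromosome 3, 87357881 to 87371073) measured 54.7, 72.6, 119.6, 34.9 and 46.5 FPKM in the DUSP6 KO spleens and 76.6, 83.5, 91.2, 90.8 and 82.0 FPKM in the WT spleens. In DUSP6 KO, 4 values were below every WT value and that of replicate 73 was above all of them, so that the DUSP6 KO values spanned 3.43-fold and the WT values 1.19-fold. The log2 fold change was -0.50 (95% interval -1.10 to 0.10, limma adjusted p = 0.94, two-sided exact permutation p = 0.14). Without DUSP6 KO replicate 73 it was -0.75, which passed the unadjusted threshold but not the adjusted one (limma adjusted p = 0.50). Without DUSP6 KO replicate 01 it was -0.30 (limma adjusted p = 0.9998). Replicate 73 also had the highest erythroid marker sum, and the part of this in its Cd5l level was not tested.

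**Figure D2:**
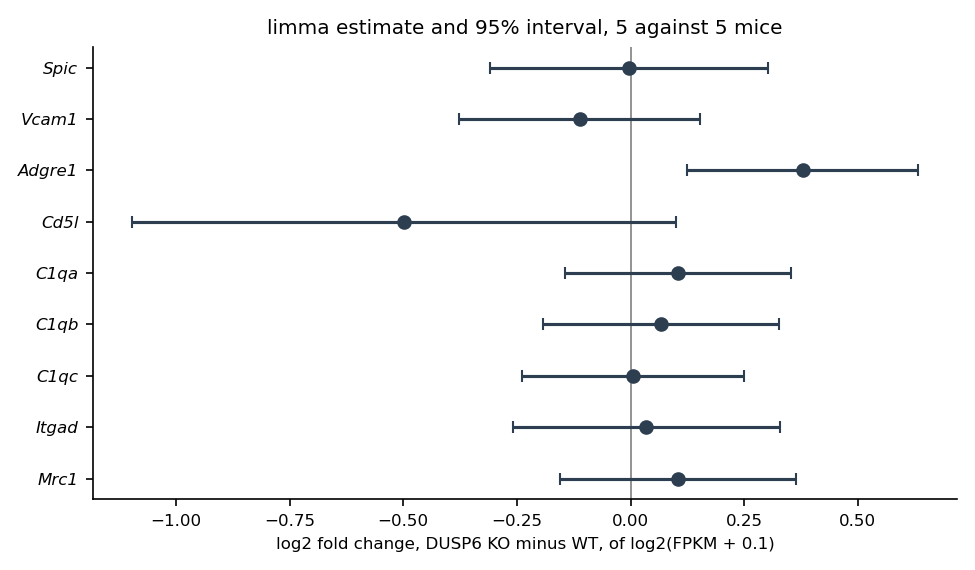
Log2 fold change of each gene, DUSP6 KO minus WT, as the limma estimate (point) with its 95% interval (bar), from 5 against 5 mice. The interval of Adgre1, 0.12 to 0.63, lies above 0, those of the other 8 genes include 0, and that of Cd5l, from -1.10 to 0.10, is the widest.

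The 3 C1q chains are encoded side by side on the minus strand of chromosome 4, C1qb at 136880129 to 136886187, C1qc at 136889804 to 136893065 and C1qa at 136895917 to 136898803. In the DUSP6 KO spleens C1qa measured 333, 327, 336, 241 and 288 FPKM, and in the WT spleens 298, 303, 282, 249 and 279 FPKM. In DUSP6 KO, 3 values exceeded the highest WT value, and that of replicate 01 was below them all. The mean was 305 ± 41 FPKM against 282 ± 21 FPKM in WT, with a log2 fold change of 0.10 (95% interval -0.14 to 0.35, limma adjusted p = 0.99). C1qb measured 340, 329, 353, 257 and 280 FPKM in the DUSP6 KO spleens and 314, 332, 301, 253 and 285 FPKM in the WT spleens. Its log2 fold change was 0.067 (95% interval -0.19 to 0.33, limma adjusted p = 0.99). C1qc measured 155, 159, 171, 114 and 136 FPKM in the DUSP6 KO spleens and 146, 155, 143, 135 and 146 FPKM in the WT spleens. Its log2 fold change was 0.0053 (95% interval -0.24 to 0.25, limma adjusted p = 0.998). For each chain the groups overlapped. As folds, the intervals ran from 0.905 to 1.28 for C1qa, from 0.875 to 1.25 for C1qb and from 0.847 to 1.19 for C1qc.

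The ratio of the chains within a library does not depend on how the library was scaled. C1qb divided by C1qa was 1.02 ± 0.04 in DUSP6 KO and 1.05 ± 0.03 in WT (exact permutation test, two-sided, p = 0.27). C1qc divided by C1qa was 0.465, 0.488, 0.510, 0.472 and 0.471 in DUSP6 KO, and 0.492, 0.512, 0.507, 0.542 and 0.524 in WT. Of the DUSP6 KO ratios, 4 were below every WT ratio, and that of replicate 73 was within the WT range. The means were 0.481 ± 0.018 and 0.515 ± 0.019, a log2 difference of -0.099 (exact permutation test, two-sided, p = 0.024, and 0.048 adjusted over the 2 ratios). When single libraries were left out, the difference stayed between -0.12 and -0.081, with an unadjusted exact permutation p of 0.016 to 0.048. Adjusted over the 2 ratios, that p was 0.032 to 0.095 and above 0.05 for 9 of the 10 libraries left out, the exception being DUSP6 KO replicate 73, so the adjusted call does not hold without any one of the other 9. The level of the FPKM ratio depends on the gene lengths used, 1931 bases for C1qc and 1040 bases for C1qa. In recovered reads, C1qc divided by C1qa had a mean of 0.893 in DUSP6 KO and 0.957 in WT, with the same log2 difference.

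**Figure D3:**
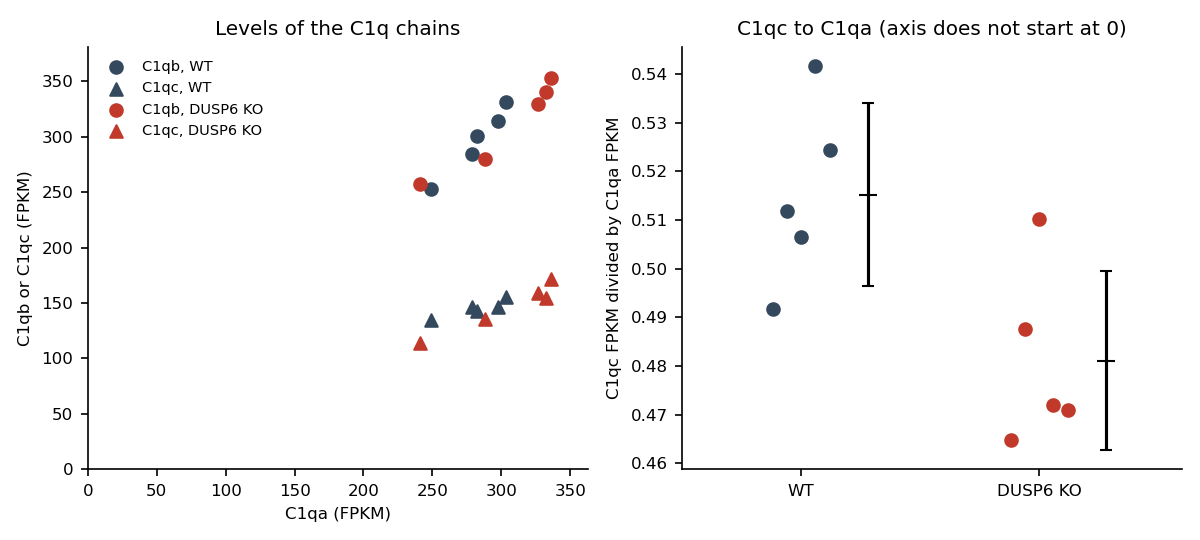
Left, C1qb (circles) and C1qc (triangles) against C1qa in FPKM, 1 point of each per library. Right, C1qc divided by C1qa, 1 point per library with the mean and SD (n = 5 per group) on an axis that does not start at 0, where 4 of the 5 DUSP6 KO ratios (0.465 to 0.510) lie below the WT ratios (0.492 to 0.542).

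The members varied more between DUSP6 KO spleens than between WT spleens. For all 9 genes the SD of the log2 values was larger in DUSP6 KO, with a median ratio of the SDs of 2.85. Over the 13422 genes whose mean reached 1 FPKM, the SD was larger in DUSP6 KO for 64.6% and the median ratio was 1.19. The members are not independent of each other in this, since 1 library was often extreme for several of them. DUSP6 KO replicate 01 was the lowest DUSP6 KO library for 7 of the 9 genes (the exceptions were Adgre1 and Mrc1). Replicate 73 was the highest for 6 and replicate 21 for the other 3 (Spic, Itgad and Mrc1).

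**Figure D4:**
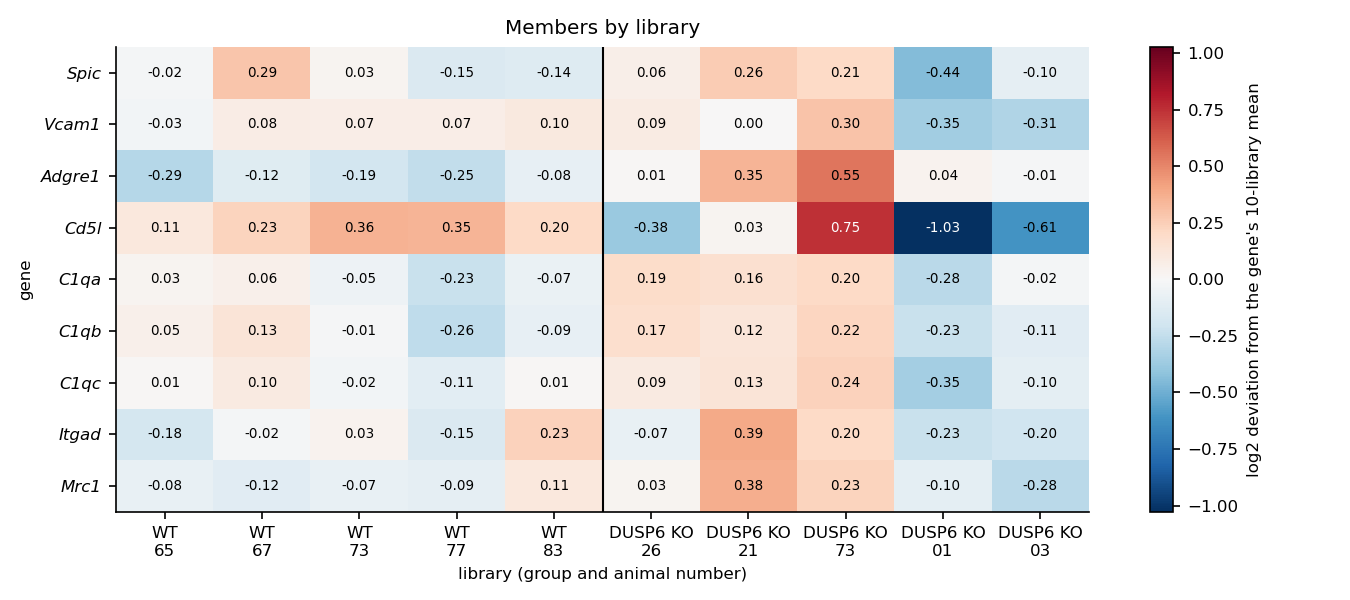
Deviation of log2(FPKM + 0.1) from the mean of the gene over the 10 libraries, by gene (rows) and library (columns, with group and animal number). The DUSP6 KO columns 01 and 73 hold most of the lowest and highest values, and the Cd5l row has the largest deviations.

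Across the 10 libraries all 36 pairs of members were positively correlated on the log2 scale (Pearson r of 0.12 to 0.95, median 0.59). Without the 2 libraries farthest from the median of the first gene of a pair, the median r was 0.36 and 7 of the 36 pairs turned negative, all of them with Adgre1 or Cd5l, the lowest being Adgre1 with Cd5l at -0.80. Over the 5 WT libraries alone, too few for a correlation of their own, r was negative for 12 pairs, and over the 5 DUSP6 KO libraries for 0. After Benjamini-Hochberg adjustment over the 36 pairs, 9 had a permutation p of 0.05 or less by Pearson's r and 7 by Spearman's rho. Those 7 were the 3 pairs of C1q chains, the 3 pairs of Spic with a C1q chain, and Itgad with Mrc1. For C1qa and C1qb, r was 0.95 and rho 0.94 (adjusted permutation p = 0.0013 and 0.0058), and r was 0.90 without the 2 libraries farthest from the C1qa median. For Spic and C1qc, r was 0.91 and rho 0.89 (adjusted permutation p = 0.0041 and 0.012), r was 0.86 without the 2 farthest libraries, and r of the deviations from the group means was 0.91. For Itgad and Mrc1, r was 0.89 and rho 0.81 (adjusted permutation p = 0.0053 and 0.037), with r of 0.78 without the 2 farthest libraries. Vcam1 and Cd5l had r of 0.89 and rho of 0.66 (adjusted permutation p = 0.0053 and 0.16), with r of 0.62 without the 2 farthest libraries. The lowest r was that of Adgre1 and Cd5l, at 0.12 (rho -0.24, adjusted permutation p = 0.75 and 0.54). For this pair, r of the deviations from the group means was 0.85. By that measure, r was negative for 0 of the 36 pairs. Pairs share their libraries, so the composition of a spleen enters every pair, and its part was not tested.

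The genes most like the 9 members were sought among 13413 other genes by the correlation of deviations from the group means over the 10 libraries with the mean deviation of the members. The highest was Fcna, which encodes ficolin A, a lectin that starts the lectin pathway of complement, with r of 0.98 (rho 0.98). Fcna had a mean of 153 FPKM against 129 FPKM in WT, with a log2 fold change of 0.22 (adjusted p = 0.95 in limma). The next were Fam213b (r = 0.95), Ttyh2 (r = 0.95), C5ar2, a receptor for the complement fragment C5a (r = 0.94), and Lipa, the lysosomal acid lipase (r = 0.92). These are the top of a long list and are given as a description.

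Of 24 further genes of red pulp macrophages and their iron handling, all were tested, 3 were higher and 0 were lower at an unadjusted limma p under 0.05, and 0 passed after adjustment over all genes tested. Their median log2 fold change was 0.099. For this list and those below, the shares over all genes tested were 2.62% higher and 3.03% lower at that unadjusted threshold. Over all genes tested, 1.11% had no overlap between the groups. Fth1, the ferritin heavy chain and the most abundant of them, averaged 2244 ± 470 FPKM against 2006 ± 146 FPKM in WT, a difference within the spread between mice. Timd4, a receptor for phosphatidylserine on dying cells that marginal zone macrophages also carry, averaged 56.3 ± 14.3 FPKM against 31.5 ± 4.1 FPKM in WT without overlap (log2 fold change 0.81, limma adjusted p = 0.26). Clec1b, which encodes the podoplanin receptor CLEC-2, had the lowest p among the lower genes, with a log2 fold change of -0.35 (adjusted p = 0.90 in limma). The other 2 higher genes, named after their values were seen, were Treml4 (log2 fold change 0.47, limma adjusted p = 0.56) and Cd163, the receptor for haptoglobin and haemoglobin (log2 fold change 0.39, limma adjusted p = 0.73). Timd4 stands also in the list of marginal zone macrophages used below, and Treml4 in that of monocytes.

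Of 18 regulators and growth factors of these macrophages, 1 was higher and 0 were lower at an unadjusted limma p under 0.05, with a median log2 value of 0.020 for the fold change and 0 past adjustment. That gene was Csf1r, the receptor for the macrophage growth factors CSF1 and IL-34, with a log2 fold change of 0.38 (adjusted p = 0.56 in limma) and no overlap between the groups. Il33, a cytokine made by splenic stroma, had the lowest p among the lower genes, with a log2 fold change of -0.25 (adjusted p = 0.95 in limma). Of 14 classical pathway proteases, inhibitors and C1q-binding proteins, 12 were tested, with a median log2 fold change of -0.011, 0 higher and 1 lower at an unadjusted p under 0.05, and 0 past adjustment. The lower gene was Calr, the most abundant of them, which encodes calreticulin, a chaperone that binds C1q on dying cells (175 ± 12 FPKM against 202 ± 17 FPKM in WT, limma adjusted p = 0.82). Serping1, the C1 inhibitor, was at a log2 fold change of 0.10 (adjusted p = 0.99 in limma).

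Of 16 integrin partners and relatives of the members, 1 was higher and 0 were lower at an unadjusted limma p under 0.05, with a median log2 value of -0.021 for the fold change and 0 past adjustment. Itgb2, the beta 2 chain that pairs with integrin alpha D, was the most abundant, at 108 ± 17 FPKM against 112 ± 9 FPKM in WT. Itgam, the alpha M relative of Itgad, was at a log2 fold change of -0.36 (adjusted p = 0.94 in limma). Mrc2, the collagen-binding relative of Mrc1, was the higher gene, at 2.16 ± 0.35 FPKM against 1.43 ± 0.35 FPKM in WT (limma adjusted p = 0.69).

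Markers of other cells that the spleen holds were examined beside the members, and 0 of them passed after adjustment in limma on FPKM. The study tested counts with DESeq2 and lists Marco and Cd209b as significantly higher in DUSP6 KO. Over all genes tested, 2.62% were higher and 3.03% lower at an unadjusted limma p under 0.05. Of 6 markers of marginal zone macrophages, 4 (Marco, Cd209b, Timd4 and Cd209d) were higher at that threshold and 0 passed after adjustment. The sum of the 6 was 171 to 277 FPKM in DUSP6 KO and 114 to 155 FPKM in WT. Of 9 markers of monocytes, cells that also carry F4/80, 3 (Cx3cr1, Ace and Treml4) were higher and 4 (Ly6c2, Ccr2, F13a1 and Chil3) lower at an unadjusted p under 0.05, with 0 past adjustment and sums of 141 to 211 FPKM in DUSP6 KO and 174 to 329 FPKM in WT. Of 12 neutrophil markers, 0 were higher and 7 lower by the same measure, S100a8 and S100a9 among them, with 0 past adjustment and sums of 594 to 2024 and 1151 to 5121 FPKM. Of 11 stromal and 10 endothelial markers, made by cells that can also carry Vcam1 or Mrc1, 1 (Pdgfrb) and 2 (Stab2 and Tek) were higher and 0 were lower, none past adjustment, and the sums of both lists overlapped between the groups. No gene of these lists was without reads in all libraries, and the part of these cells in the levels of Adgre1, Vcam1 and Mrc1 was not tested. Of 5 megakaryocyte markers tested, 0 were higher and 2 (Pf4 and Itga2b) lower at an unadjusted limma p under 0.05, and of 8 dendritic cell markers 1 (Siglech) was higher and 0 were lower. Of the B cell, T cell, erythroid, pancreas and mesothelium markers, 0 passed in either direction. The sums of the neutrophil, monocyte, dendritic cell, B cell, T cell, erythroid, megakaryocyte, pancreas and mesothelium lists also overlapped between the groups.

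**Figure D5:**
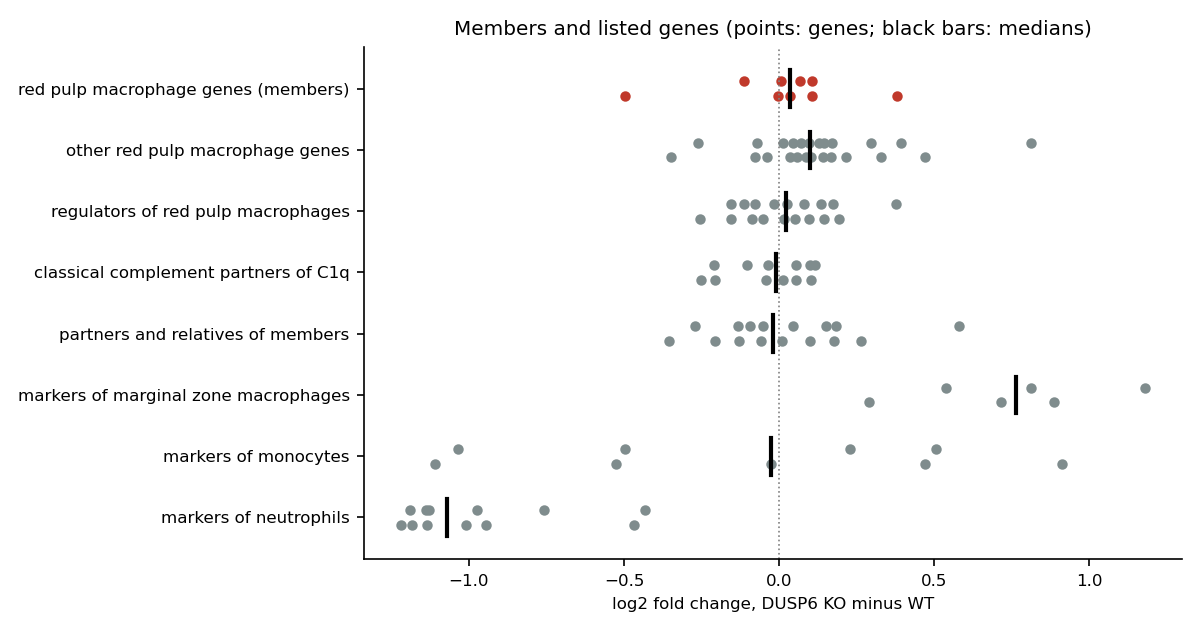
Log2 fold change, DUSP6 KO minus WT, of each tested gene of 8 lists (points) with the median of each list (black bar). The 9 members have a median of 0.035, the 6 markers of marginal zone macrophages one of 0.76 and the 12 neutrophil markers one of -1.07.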

How the data were processed

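Spleen RNA of 5 DUSP6 KO and 5 WT mice was sequenced by a service provider, 1 library per mouse. The authors used Hisat2 for alignment and featureCounts (1.5.0-p3 in the processing notes) for counts per gene, and deposited FPKM, made from count and gene length, for 54532 genes. The processing notes name the build hg38, but 53585 genes (98.3%) and all 9 members have the coordinates of mouse GENCODE on GRCm38, so positions are given there. The reads behind each FPKM were recovered from its smallest step and the gene length, and 100% of values came out within 0.001 of a whole read.

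Values on the log2(FPKM + 0.1) scale were tested with limma (version 3.58.1, R version 4.3.3), using lmFit and a trended eBayes. It was checked on simulated data with larger fold changes than those of the members. The check therefore does not show how often differences as small as theirs would be called. A fold change on this scale slightly understates low genes. Single values were compared by two-sided exact permutation tests. The study tested counts with DESeq2, which was not repeated on FPKM. Permutations of correlations numbered 100000.

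The 9 members and the gene lists were chosen with earlier results of these data known. Besides the members, the genes named are, for each of the 4 non-marker lists, the most abundant and the gene with the lowest p in each direction, and the 5 genes most like the members. Treml4, Cd163 and the genes named from the cell marker lists were added after their values were seen. Replicates carry the animal numbers of the labels and are separate mice. Alternatives were pseudocounts of 1 and 0.01, other filters, eBayes settings, weights and scalings, limma voom, other thresholds, and leaving out libraries.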

Additional observations from a re-analysis of the deposited data

Results flagged for a closer look

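In 22 groups of 5 values (the 9 genes and 2 C1q ratios, in DUSP6 KO and in WT) the highest and the lowest library were compared with the rest of the group, a rule by which chance picks about 1 group in 20. Vcam1 in WT replicate 65, at 76.1 FPKM, lay below the other 4 WT values, the nearest of which was 81.0 FPKM. Mrc1 in WT replicate 83, at 25.5 FPKM, lay above the other 4, the nearest of which was 22.5 FPKM. Both gaps are large against a narrow WT group and small in FPKM. No DUSP6 KO value was picked by this rule.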

How the results depend on the processing

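The direction of Adgre1, Cd5l, Vcam1, C1qa, C1qb and Mrc1 held under all 22 alternatives run for each, and their adjusted limma p stayed above 0.05, as did that of the other 3 members. The log2 fold changes of Spic, C1qc and Itgad are near 0 and turned sign. That of Spic became 0.00078 with quantile normalization, 0.015 with median centring, 0.0072 with libraries rescaled after haemoglobin, mitochondrial, immunoglobulin and T cell receptor genes were removed, and 0.016 without WT replicate 67 and DUSP6 KO replicate 73, an alternative added after the data were seen. With array weights C1qc was at -0.051 and Itgad at -0.078, and without these 2 libraries they were at -0.029 and -0.012. Leaving out each library in turn gave -0.069 to 0.11 for Spic, -0.054 to 0.094 for C1qc and -0.059 to 0.098 for Itgad. At an unadjusted p under 0.05, 1 member was higher under every alternative, and 1 was lower (Cd5l) with array weights, with voom, and without those 2 libraries, and 0 to 1 with each library left out. The log2 difference of C1qc to C1qa was -0.12 to -0.081 with each library left out, and its p adjusted over 2 ratios was 0.05 or less only without DUSP6 KO replicate 73. Over all genes, 8 were called higher and 7 lower. These counts were 13 higher with array weights, 14 higher without the 2 libraries, 4 lower with a minimum mean of 1 FPKM, 559 and 646 at an unadjusted p under 0.05, and 6 to 21 higher and 4 to 13 lower with each library left out, with the highest counts without DUSP6 KO replicate 21 and the lowest count of lower genes without WT replicate 83. The causes were not tested. No paired analysis was possible because the labels give no pairing, and the animal number 73, found in both groups, belongs to separate mice. With 5 mice per group, the 95% intervals of the members other than Cd5l allow differences of up to about 0.4 on the log2 scale, and that of Adgre1 up to 0.63.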
